A study of Mus musculus with 12 samples.

Results

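The transcripts of 10 proteins that are widely used to recognise macrophages living long-term in a tissue are described here: Timd4, Lyve1, Folr2, Vsig4, Cd163, Mrc1, Cd209f, Cbr2, Fcna and Marco. They were chosen by name, as every non-control probe annotated to one of these genes, and make up 10 of the 20370 genes and features tested. The study measured transcripts in macrophages sorted from mouse pancreas tumours, in 6 samples carrying a yellow fluorescent protein (YFP+) and 6 samples without it (YFP−). All 12 samples came from female C57/B6 mice aged 8 to 10 weeks that had received implanted tumours. No genotype is given for either group. The series text names wild-type, KPC and Flt3-Cre/LSL-YFP mice without tying a sample to any of them, so the reading of YFP rests on that text alone. A Flt3-Cre reporter labels descendants of Flt3-expressing blood progenitors and can miss some of them, so YFP− is not a pure class of cells of other origin. Each group holds tumour numbers 1 to 6, here numbered in the order of the sample titles, and the titles give each number once in each group, so the YFP+ and YFP− samples of a number were taken as sorted from 1 tumour. Whether the 6 tumours came from separate animals is not stated. The spread that each p-value is set against is that between these arrays, taken as 6 tumours per group. It includes technical spread and may not be a spread between animals.

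Tissue-resident macrophages are seeded in part before birth and keep themselves by division, whereas other macrophages of an adult tissue are replaced from blood monocytes. Resident cells of several organs carry a shared set of uptake receptors for dying cells, glycans, complement-coated particles and haemoglobin, and TIM4 (encoded by Timd4), LYVE1 and FOLR2 are used together as markers of such cells. None of these genes is exclusive to resident macrophages: Lyve1 is also made by lymphatic endothelium, and Cd163 and Mrc1 are raised in many macrophages by glucocorticoids or by interleukin-4.

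The labelled cell type was checked first. All 15 core macrophage genes looked at, among them Csf1r, Adgre1 and the C1q chains, were well above background on all 12 arrays, and none was called different between the groups. All 11 probes of the 10 resident markers were also well above background on all 12 arrays, so each gene could be measured in both groups. Levels are given as a relative signal, the background-subtracted red fluorescence of a probe divided by the 75th percentile of its array, and differences are means of its log2 in YFP+ minus YFP−. Probes differ in brightness for reasons of sequence, so relative signals are compared between arrays and never between genes.

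The probes decide what was measured, and stretches of 30 bases of the 3 whose genes differed most are shown, as the array annotation gives them. Capitals mark AATAAA, the usual signal for cutting and polyadenylating a transcript, which the Cd209f stretch holds in a pair of copies.

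Timd4 probe, first 30 of 60 bases: acttcttttcacattcaagtttctttaaag

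Vsig4 probe, first 30 of 60 bases: ggattactcctctttctctagggccagatg

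Cd209f probe, last 30 of 60 bases: tcagcacccaAATAAAaAATAAAatattaa

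In the array annotation (mm9), the Timd4 probe lies at chr11:46657173-46657232, the Vsig4 probe at chrX:93442598-93442657 and the Cd209f probe at chr8:4102798-4102857. AATAAA occurred in 2 of the 11 probes, those for Cd209f and the second Cbr2 probe, and in 12.6% of all 39394 probes. Whether a probe lies in a coding exon or an untranslated region was not determined here.

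All 10 resident markers had a lower mean in YFP+ than in YFP− macrophages, and none passed limma's adjusted threshold of 0.05 when the tumours were not matched. With the tumour number as a block, 1 of the 10 passed, Timd4, where 1.45% of all features did. A difference below 0 was found in 52.8% of all features. The 10 genes were chosen with earlier results of these data known, and many varied together across arrays. Their signs are therefore not 10 independent results, and the shared sign was not tested. The median difference of the 10 genes was −0.83 on the log2 scale, against −0.03 over all features tested. Of the 10, 7 had an unadjusted limma p under 0.05, all lower in YFP+, where 7.51% of all features did so. The difference was −1 or lower for 3 genes, Timd4, Vsig4 and Cd209f, against 7.15% of all features. Of all features, 1.75% were called by limma in either direction, 1.41% lower and 0.334% higher. Comparing tumour numbers one by one, 57 of 60 differences were below 0, and 7 of the 10 genes were lower in 6 of 6 tumour numbers (5.29% of all features were). With bulk RNA, fewer cells that carry a gene and less of its RNA per cell cannot be told apart.

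**Figure D1:**
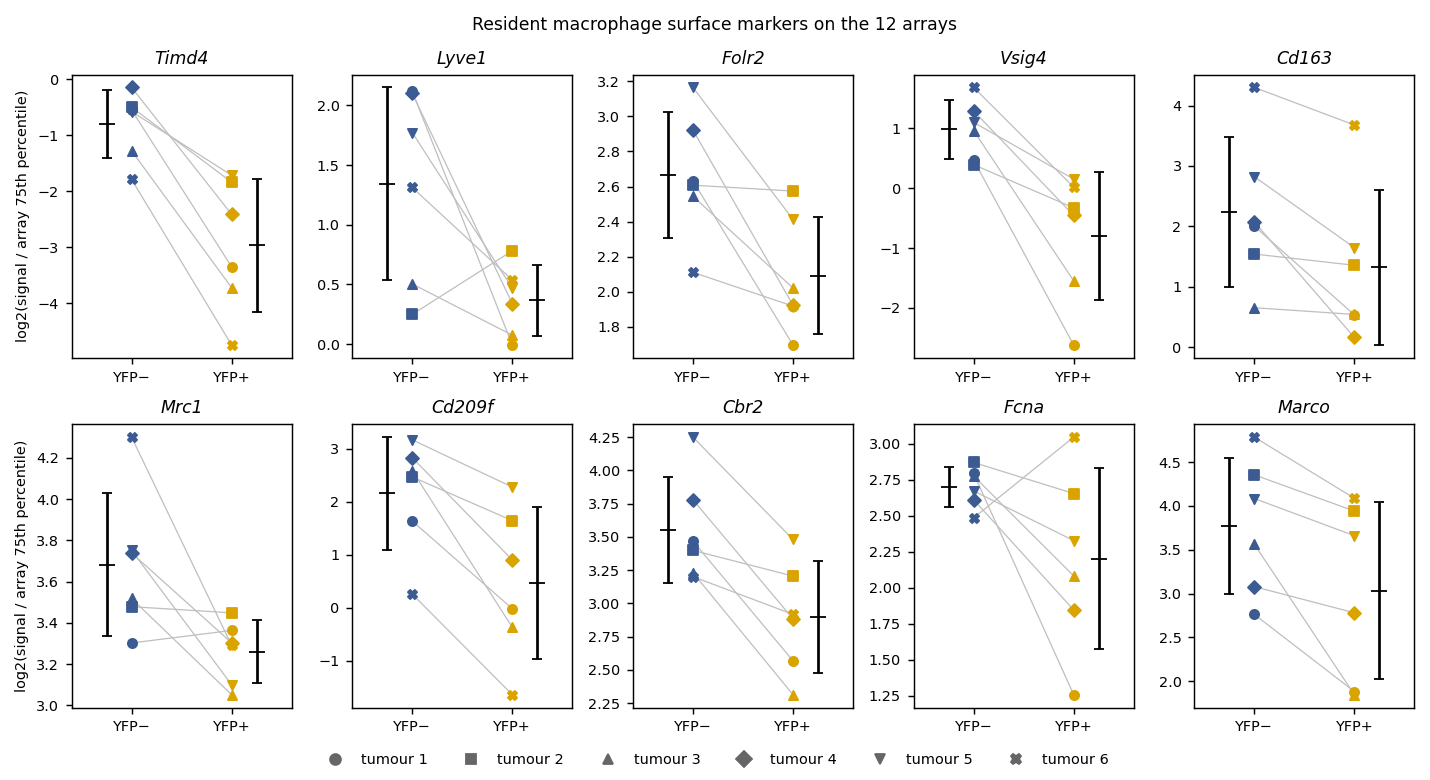
Relative signal of the 10 resident markers on the 12 arrays, as log2 of signal over the array's 75th percentile, with its own vertical scale for each gene. Points are arrays, symbols are tumour numbers joined by grey lines, and black bars are group means ± SD (n = 6). YFP+ lies below YFP− in 57 of the 60 joined pairs, and Vsig4 is the gene whose groups do not overlap.

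Among the scavenger receptors, Timd4 had the largest difference. TIM4 binds phosphatidylserine on dying cells and lets macrophages take them up. Relative signal of Timd4 was 0.0372 at the lowest, 0.143 at the median and 0.305 at the highest of the 6 YFP+ arrays. In YFP− it was 0.290, 0.679 and 0.906. The groups overlapped by 1 array on each side, since YFP− tumour 6 (0.290) lay just below YFP+ tumour 5 (0.305), and the other 5 YFP+ arrays lay below every YFP− array. Tumour 6 had the lowest value of both groups. The mean was 4.47-fold lower in YFP+ (log2 difference −2.16, SE 0.51, 95% interval −3.27 to −1.06), and lower in 6 of 6 tumour numbers. Timd4 just missed the threshold across all features (limma adjusted p = 0.056), and passed it with the tumour number as a block (adjusted p = 0.023). The gene alone gave an exact two-sided permutation p of 0.0043. This exact permutation p was 0.25 for Cd163, 0.19 for Marco, 0.084 for Fcna, 0.032 for Lyve1, 0.015 for Folr2 and 0.022 for Cbr2. Values for the other genes are given with them below, and none is adjusted for the number of genes.

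CD163 takes up haemoglobin bound to haptoglobin. Relative signal of Cd163 ran from 1.12 through a median of 2.01 to 12.8 in YFP+ and from 1.57 through 4.11 to 19.7 in YFP−. Tumour 6 was the highest array of both groups, opposite to its place for Timd4. The difference of −0.91 (SE 0.67) was smaller than the spread between tumours (limma adjusted p = 0.70), although it was below 0 in 6 of 6 tumour numbers. It was −0.50 without the YFP− array of tumour 6 and −1.38 without the YFP+ array of that tumour.

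MARCO binds bacteria and particles. Its transcript had relative signals of 3.59, 9.76 and 17.0 (lowest, median, highest) in YFP+ and 6.78, 14.4 and 27.6 in YFP−. Here too tumour 6 was highest in both groups, and the groups overlapped broadly. The difference was −0.74 (SE 0.49, limma adjusted p = 0.64), again below 0 in 6 of 6 tumour numbers.

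Vsig4 was the only one of the 10 genes whose groups did not overlap, as was the case, with YFP+ lower, for 1.45% of all features. VSIG4, also called CRIg, is a receptor for complement C3 fragments and marks Kupffer cells and large peritoneal macrophages. Its relative signal was 0.163, 0.763 and 1.11 (lowest, median, highest) in YFP+ and 1.31, 2.05 and 3.21 in YFP−. The lowest value, in YFP+ tumour 1, stood well under the rest of its group. The mean was 3.43-fold lower in YFP+ (log2 difference −1.78, SE 0.45, 95% interval −2.77 to −0.79, limma adjusted p = 0.083), and −1.42 without that array. The exact permutation p of 0.0022 is the smallest that 6 against 6 samples can give when the tumours are not matched.

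The other complement-pathway gene is Fcna, which encodes ficolin A, a secreted lectin of macrophages that starts the lectin pathway. Relative signal of Fcna was tight in YFP−, from 5.60 through 6.61 to 7.31, and wide in YFP+, from 2.39 through 4.63 to 8.26. The highest of all 12 arrays was YFP+ tumour 6, the only tumour with more Fcna in YFP+ than in YFP− (0.56). The difference of −0.50 (SE 0.27) did not pass (limma adjusted p = 0.55) and was −0.31 without YFP+ tumour 1.

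The lectins differed in size of effect and in spread. Cd209f is one of the mouse relatives of the human lectin DC-SIGN. Its relative signal was 0.320, 1.43 and 4.86 (lowest, median, highest) in YFP+ and 1.19, 5.78 and 9.01 in YFP−. Tumour 6 was lowest and tumour 5 highest in both groups, and YFP+ was lower in 6 of 6 tumour numbers. The mean was 3.24-fold lower in YFP+ (log2 difference −1.69, SE 0.67, limma adjusted p = 0.33), with an exact permutation p of 0.045.

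Mrc1 encodes the mannose receptor CD206. Its relative signal stayed between 8.29 and 10.9 in YFP+ (median 9.83) and between 9.87 and 19.7 in YFP− (median 12.4). The high YFP− value was that of tumour 6, and 5 of the 6 YFP− arrays lay above every YFP+ array. The difference was the smallest of the 10, −0.42 (SE 0.19, limma adjusted p = 0.44), and tumour 1 alone had a value above 0 (0.06). The gene on its own gave an exact permutation p of 0.011.

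Lyve1 encodes a hyaluronan receptor. Its relative signal was 0.995, 1.32 and 1.72 (lowest, median, highest) in YFP+, and it was both higher and more variable in YFP−, at 1.19, 2.95 and 4.34. Tumour 2 was the exception, with more Lyve1 in YFP+ than in YFP− (0.53). The difference was −0.98 (SE 0.34, limma adjusted p = 0.25). It was −0.25 on slide 1, −0.78 on slide 2 and −1.90 on slide 3, where a slide carried 2 arrays of each group. Endothelial genes, none of them called, had the same order across slides, with a median difference of the 9 tested of −0.16, −0.20 and −1.82. Only 3 of the 9 were above background on all arrays, so these medians include probes near background. Those were Kdr (−0.10), Pdpn (−0.27) and Vwf (0.45). Tie1, Prox1 and Flt4 did not pass the detection filter. The summed relative signal of the endothelial list ranged over 7.49 to 16.1 in YFP+ and 8.85 to 18.4 in YFP−. Pdpn alone had 5.84 to 12.9 in YFP+ and 6.72 to 13.3 in YFP−. The part of endothelial RNA in the Lyve1 difference was not tested.

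Folr2 encodes the folate receptor beta of macrophages. Its relative signal was 3.24, 3.92 and 5.95 (lowest, median, highest) in YFP+ and 4.32, 6.15 and 8.97 in YFP−. YFP+ was lower in 6 of 6 tumour numbers, the least in tumour 2 (−0.03), and the groups overlapped. The difference was −0.57 (SE 0.22, limma adjusted p = 0.32).

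Cbr2 encodes a carbonyl reductase, an intracellular enzyme that accompanies this surface set in several resident populations. Its relative signal was 4.97, 7.47 and 11.2 in YFP+ and 9.19, 10.8 and 19.0 in YFP−, with tumour 5 highest in both groups. The difference was −0.66 (SE 0.25, limma adjusted p = 0.30), and −0.77 (SE 0.37) with the gene's other probe. Both probes gave lower means in YFP+.

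The arrays lay on 3 slides with 2 samples of each group per slide, so every difference could be taken within a slide. It was below 0 on all 3 slides for 8 of the 10 genes. The exceptions were Cd163 (0.04) and Fcna (0.22), both on slide 1, which held both arrays of tumour 6. For Timd4 the slide values lay between −1.76 and −2.73, for Vsig4 −1.48, −1.98 and −1.88, and for Cd209f −1.42, −1.69 and −1.97. Blocked on slide, limma's adjusted p was 0.053 for Timd4 and 0.066 for Vsig4.

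**Figure D2:**
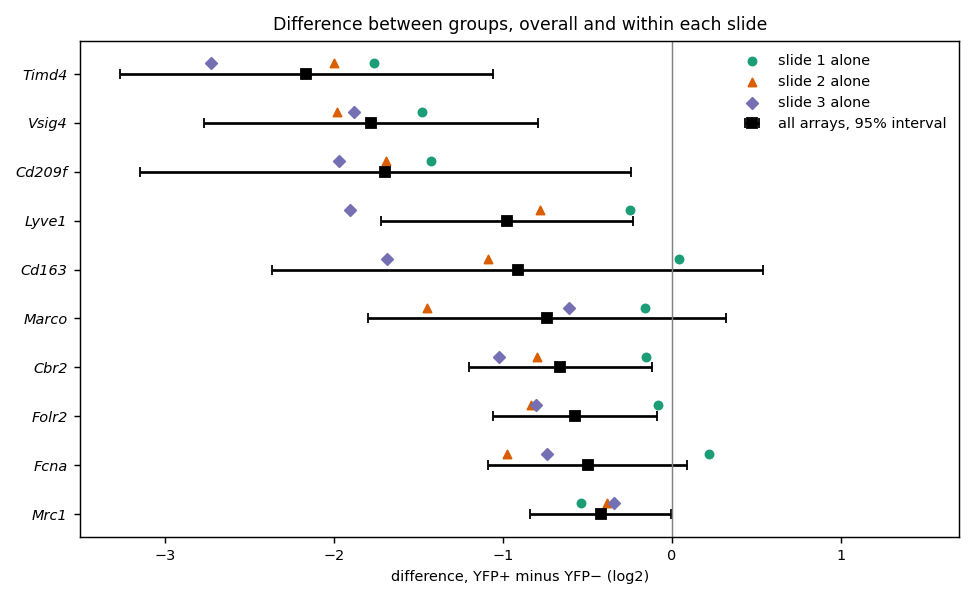
Difference in log2 relative signal, YFP+ minus YFP−, for each of the 10 resident markers. Black squares and bars are the estimate over all 12 arrays with its 95% interval, and coloured symbols are the differences within each slide of 2 against 2 arrays. Timd4, Vsig4 and Cd209f lie below −1 on every slide, while Cd163 and Fcna lie just above 0 on slide 1.

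Array brightness differed between the groups, which touches every value above. The 75th percentile of the processed signal was 3252 to 3913 in YFP+ and 2100 to 3357 in YFP−, a log2 difference of 0.48 (exact permutation p = 0.0043). Of all spots, 61.6% to 66.3% were well above background. Scaling by each array's median in place of its 75th percentile moved the median difference of all features from −0.03 to 0.18, and all 10 resident markers still had a difference below 0 (Timd4 −1.95, Vsig4 −1.57, Mrc1 −0.21). Under that scaling 33.5% of called features were higher in YFP+, against 19.1%. A fit with brightness as a covariate, chosen after the data were seen, gave −1.81 for Timd4 and −1.79 for Vsig4 but −0.27 for Cd209f and −0.11 for Marco. In that fit Lyve1 was at −2.11 and Cd163 at −1.98. It called 13 features in all and none of the 10. The part of brightness in the group differences was not tested beyond these fits.

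The calls of Timd4 and Vsig4 depended on the setting. Besides the fit with the tumour number as a block, Timd4 passed with limma's intensity trend and robust variances (adjusted p = 0.037), after normexp background correction (0.011) and when a probe had to exceed background on every array (0.040). Vsig4 passed with the first of these (0.040) and the second (0.019). Normexp made both differences smaller, at −1.55 for Timd4 and −1.58 for Vsig4, so their size depends on how background is handled. Leaving out single arrays brought Timd4 under the threshold without YFP+ tumour 2 (0.044), YFP+ tumour 5 (0.041) or YFP− tumour 6 (0.0495). Other fits moved it away, to an adjusted p of 0.17 without both arrays of tumour 3 and 0.42 with brightness as a covariate. Vsig4 was at 0.27 and 0.39 in these 2 fits. The other 8 genes passed in no setting tried.

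**Figure D3:**
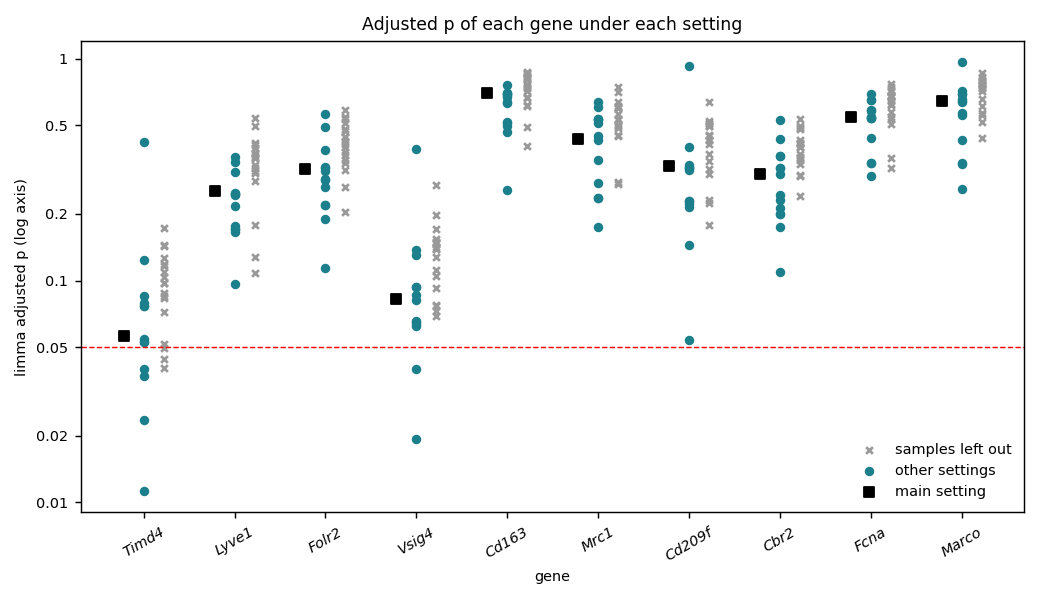
limma adjusted p (log axis) of the 10 resident markers with the main setting (black squares), the other processing settings (teal points) and with arrays or tumour numbers left out (grey crosses). The dashed line is the threshold of 0.05. Points of Timd4 and Vsig4 lie on both sides of it, and all points of the other 8 genes lie above it.

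The 10 genes did not vary as one block across arrays. As a description over 12 arrays that share groups, slides and brightness differences, Pearson's r was above 0 for 44 of 45 pairs of genes. After each array's deviation from its group mean was taken, 33 pairs stayed above 0 and 12 lay below it, with a median r of 0.32 against 0.55 before. Timd4 and Cd209f were most alike, with r = 0.92 over the arrays, 0.90 for the deviations and 0.80 without the 2 arrays farthest from the Timd4 median. Folr2 and Cbr2 followed with 0.90 and 0.82 for the deviations, and Folr2 and Cd209f with 0.86 and 0.77. These 4 genes, Timd4, Cd209f, Folr2 and Cbr2, had deviations that correlated at 0.61 or above in every pair.

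Vsig4, Marco, Fcna and Cd163 varied together to a lesser degree. The deviations of Vsig4 and Marco had r = 0.73, and 0.65 without both arrays of tumour 6. Over the arrays their r of 0.74 became 0.33 without the 2 arrays farthest from the Vsig4 median. That of Vsig4 and Fcna went from 0.74 to 0.24, while their deviations had 0.63, and 0.68 without tumour 6. Leaving out a gene's extreme arrays narrows its range, which can lower r by itself. Cd163 and Marco had r = 0.70, and 0.55 without the 2 arrays farthest from the Cd163 median. Their deviations had 0.65, and 0.40 without tumour 6. Between the sets, the deviations of Cd163 ran opposite to those of Timd4 (−0.42) and Cd209f (−0.50). Without both arrays of tumour 6, a check added after the data were seen, these deviations correlated at 0.61 and 0.53, so the opposite course rests on that tumour. Every pair between the sets rose in this check, from 0.12 to 0.84 for Vsig4 and Cd209f and from −0.09 to 0.82 for Cd163 and Folr2. The rise was least for Cbr2 and Fcna (0.32 to 0.36). The division into sets therefore also depends on tumour 6. Lyve1 and Marco (−0.10) and Mrc1 and Fcna (−0.16) lay below 0 without it. The r of Timd4 and Cd209f was 0.80 without tumour 6.

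**Figure D4:**
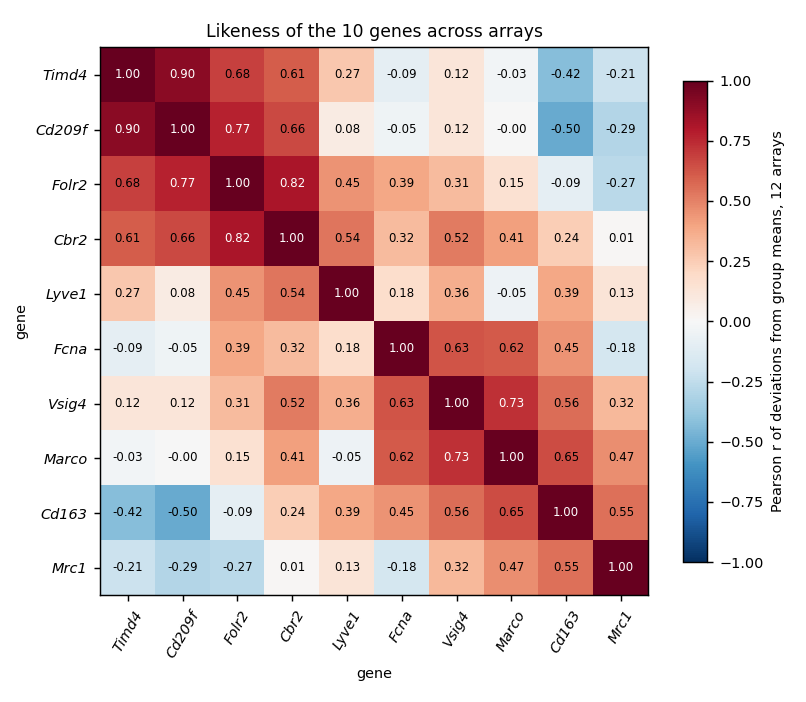
Pearson's r between the 10 resident markers over 12 arrays, computed on deviations from the group means so that the group difference does not enter. Red is positive and blue negative. Timd4, Cd209f, Folr2 and Cbr2 form the upper left block with values of 0.61 to 0.90, and Cd163 has negative values with Timd4 and Cd209f.

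Among all named genes, the 10 included, those whose pattern was most like Timd4 over the 12 arrays were St3gal6 (r = 0.93), Cd209f and Cldn2 (0.91). For Vsig4 they were Itgb4 (0.91), Adi1 and Serpinb6c, for Cd209f Timd4, Gm9831 and Rad51b, and for Folr2 Rad51b, Cbr2 and Vmn2r58. Cd163 was most like Gpx3 (0.94), Slc28a2 and Cfhr2, Marco most like Klf6 (0.94), Pmp22 and Fcgrt, and Mrc1 most like Mt1 (0.95), Kctd2 and Cerk. Fcna was most like Gtf2e2, Fosl1 and Usp9x. The pattern of Lyve1 was nearest to those of Cela3b (0.93) and Ctrb1 (0.91), both digestive enzymes of pancreatic acinar cells, and of Rnf139. That of Cbr2 was nearest to Dcn (0.91), a matrix proteoglycan of fibroblasts, then C6 and Folr2. Of the genes named here, St3gal6 (−2.43), Cldn2 (−3.00), Serpinb6c (−0.88) and Dcn (−1.85) were themselves called lower in YFP+ by limma. Itgb4 was at −3.08 and not called (limma adjusted p = 0.090). Which cells made the genes most like Timd4 and Vsig4 was not tested.

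Because Timd4 and Cd209f varied most alike, the 250 bases before each start site are shown from RefSeq (GRCm38.p6), 5′ to 3′ on the gene's strand. Timd4 is on the plus strand, chr11:46810549-46810798, and Cd209f on the minus strand, chr8:4105765-4106014. Capitals mark TGCTGA, the half-site bound by MAF factors, found on either strand and so also read as TCAGCA. MAF factors and PU.1 act throughout macrophages.

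Timd4: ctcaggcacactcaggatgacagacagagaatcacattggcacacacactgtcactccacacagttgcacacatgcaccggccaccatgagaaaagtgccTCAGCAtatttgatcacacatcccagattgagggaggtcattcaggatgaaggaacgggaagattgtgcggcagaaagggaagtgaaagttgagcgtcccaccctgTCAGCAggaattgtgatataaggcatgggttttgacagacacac

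Cd209f: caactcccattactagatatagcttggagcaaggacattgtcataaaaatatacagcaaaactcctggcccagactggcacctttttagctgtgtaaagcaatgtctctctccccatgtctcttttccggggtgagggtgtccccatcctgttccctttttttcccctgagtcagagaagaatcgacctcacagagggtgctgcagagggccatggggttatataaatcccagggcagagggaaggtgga

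The half-site occurred 2 times before Timd4 and not in the Cd209f window. Promoters were found for 9 of the 10 genes (all but Lyve1), 10 in all since Folr2 has a pair of start sites. TGCTGA was held by 4 of these 10, those of Timd4, Fcna and both of Folr2, and by 16.1% of 32851 promoter windows. GAGGAAG, a PU.1 motif that shares no overlap with it, was sought on both strands and held by 4 of the 10, those of Marco, Mrc1, Fcna and Cbr2, and by 10.6% of all windows. These matches describe the letters in the windows alone.

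The 25 companion genes, other transcripts typical of resident macrophages, had a smaller median difference. Of the 25, all tested, 20 had a difference below 0, 5 above 0, and none was called by limma without matching the tumours (5 had an unadjusted p under 0.05). Their median difference was −0.20, against −0.83 for the 10 resident markers and −0.03 for all features. Slc40a1, the iron exporter ferroportin, had the largest difference (−1.55, SE 0.45, limma adjusted p = 0.13) and was the 1 companion gene called with the tumour number as a block (adjusted p = 0.042). The others of the 4 with the smallest p were Igf1 (−0.89), the selenium carrier Selenop (−0.65, SE 0.18, adjusted p = 0.11) and the transcription factor Maf (−0.53). Relative signal of Selenop did not overlap between groups, with 15.1 to 23.7 in YFP+ and 25.2 to 37.6 in YFP−. The efferocytosis receptors Mertk and Axl and the sialoadhesin gene Siglec1 were among the genes that did not pass. Selenop was called with limma's trend and robust variances (adjusted p = 0.037) and in the fit blocked on slide (0.019), and Slc40a1 without YFP+ tumour 3 (0.049).

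Relatives of the 10 genes by sequence or function had no common direction. Of 33 listed, 26 were tested, with 12 below and 14 above 0 and a median of 0.06. Colec12, a scavenger receptor with a lectin domain, was the 1 called by limma (−3.42, SE 0.70, adjusted p = 0.028), and was not called with the tumour number as a block (adjusted p = 0.077). It was above background on 2 of 6 YFP+ and 6 of 6 YFP− arrays, so its size is uncertain, and it was not called with array weights, with brightness as a covariate or without any 1 of several arrays. Scara3 (−1.65, adjusted p = 0.088), Mrc2 (−2.04) and Stab2 (−2.16) were also below 0 and not called. Mrc2 was above background on 4 of 6 YFP+ arrays and Stab2 on 5 of 6, so their sizes are uncertain too. Of the class A scavenger receptors listed beside Marco, Msr1 was at 0.19, whereas Scara5 (−0.30), Scara3 and Colec12 were below 0. Havcr2, which encodes TIM3 and is a relative of Timd4, was at 0.39. Folr1, beside Folr2, was at −0.02.

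In the Cd209 family, the mean was lower in YFP+ for Cd209f and higher for the 4 tested relatives. Cd209a, which is also a marker of monocyte-derived dendritic cells, had a median relative signal of 3.49 in YFP+ and 1.33 in YFP− and exceeded YFP− in each of the 6 tumour numbers (1.29, limma adjusted p = 0.45). Cd209d was at 0.69, Cd209e at 1.09 and Cd209c at 2.19, none of them called. Of these, Cd209a and Cd209d were above background on all 12 arrays, whereas Cd209c was so on 4 of 6 YFP− arrays and Cd209e on 4 of 6 YFP+ and 3 of 6 YFP− arrays. The contrast between Cd209f and its relatives was not tested. Cross-hybridisation between these relatives was not tested. The 6 tested dendritic cell markers, Cd209a among them, had summed relative signals of 5.99 to 20.03 in YFP+ and 4.17 to 11.6 in YFP−. The part of dendritic cells in these values was not tested either.

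**Figure D5:**
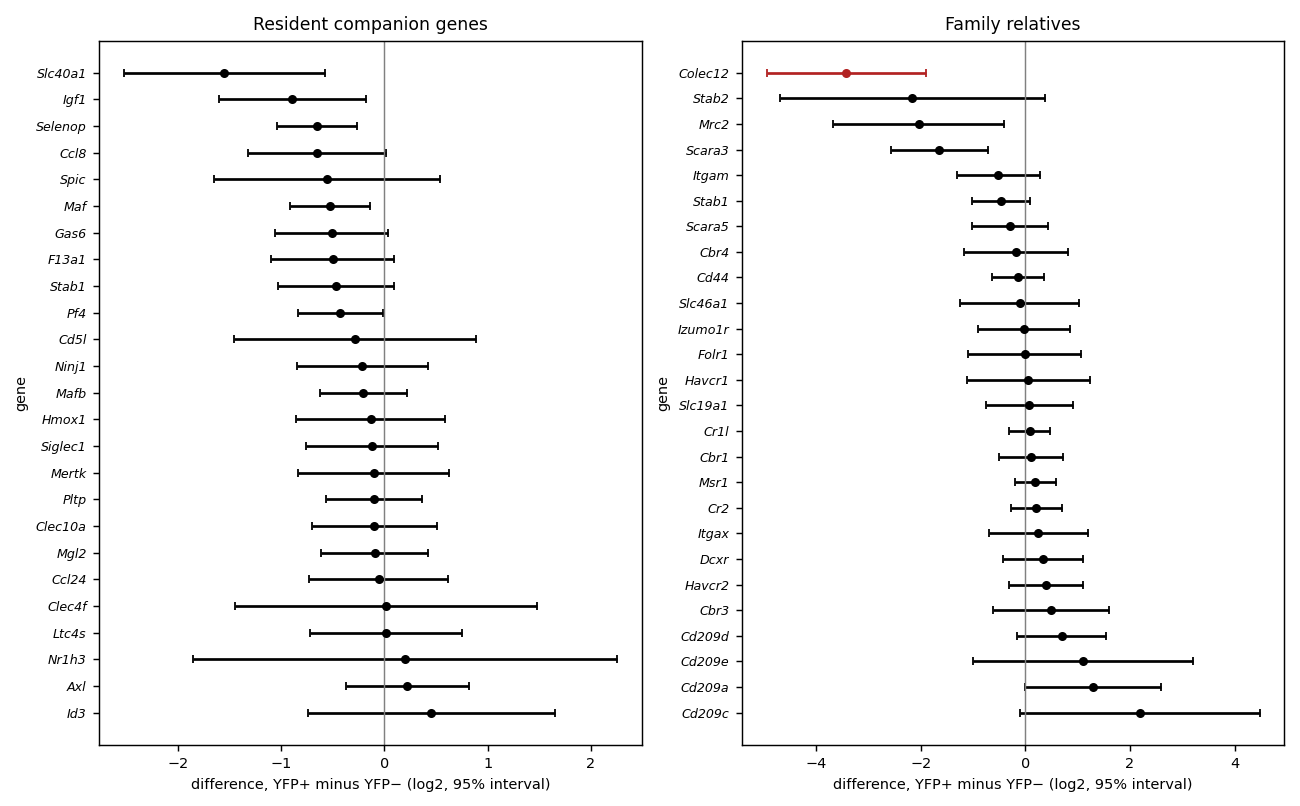
Differences in log2 relative signal, YFP+ minus YFP−, with 95% intervals for the 25 companion genes of resident macrophages (left) and the 26 tested relatives of the 10 markers (right). Red marks an adjusted limma p under 0.05, reached by Colec12 alone. Slc40a1 has the lowest value on the left at −1.55, and the 4 Cd209 relatives have the highest values on the right.

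Markers of cells other than macrophages also differed between the groups. All 9 fibroblast genes had lower means in YFP+, 7 of them called, with a median of −1.85 and summed relative signals of 11.7 to 32.7 in YFP+ and 49.0 to 129 in YFP−. All 9 epithelial genes had lower means, 4 of them called, with a median of −1.79 and sums of 4.92 to 10.6 against 15.0 to 39.1. Of the red cell genes 4 of 4 tested were lower and 3 called, with sums of 3.73 to 26.8 against 28.3 to 92.5. The 6 acinar genes were all lower, 1 called, with sums of 3.71 to 25.5 against 11.7 to 94.0 and medians of −0.74, −0.25 and −4.18 on the 3 slides. Of the mast cell and basophil genes 2 of 5 were tested and both called lower (median −2.52). The 5 tested neutrophil genes had a median of −1.65 with none called. Of these, 4 were lower in YFP+ and 1, Cxcr2 (1.02), was higher. The medians lay above 0 for monocyte (0.30), dendritic cell (0.69), B and plasma cell (0.76) and T and NK cell genes (0.23), with none called. Core macrophage genes had a median of −0.11, with sums of 256 to 421 in YFP+ and 284 to 474 in YFP−. With the tumour number as a block, the called genes were 6 fibroblast, 5 epithelial, 2 red cell, 1 acinar, 1 mast cell and basophil and 1 neutrophil gene, all lower in YFP+. The part of RNA from other cells in the differences of the 10 resident markers was not tested.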

How the data were processed

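Red-channel scanner files of 12 Agilent 4x44K arrays were used. The deposited intensity values (processed signal) come, per the file headers, from Agilent Feature Extraction 11.5.1.1, with background subtracted. The authors' deposited value table is on a log2 scale, judged from its values: each column had a median of 8.83 and a Spearman correlation of 0.9999 or above with its array. It served as an alternative, and 0 of its columns were unused.

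Control spots (1377) and outlier flags were left out, repeat spots averaged, and 35 of 39429 probes without a value on some array dropped. No spot was saturated. Each array's 75th percentile was subtracted from log2 signal, without a pseudocount. A probe was kept if at least 6 of 12 arrays had it well above background (25434), and the passing probe with the highest mean stood for a gene, giving 20370 features. RefSeq accessions named 28330 probes, and 11099 kept the array's name. Positions are mm9 per the file headers. Ly6c2 was not analysed here.

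limma 3.58.1 (R 4.3.3) was fitted to the log2 values (lmFit, eBayes, all 12 arrays, group as the only factor) with Benjamini-Hochberg adjustment over all features, after a check on simulated data. Samples of the 2 groups were paired by the tumour number that their titles share; deviations of same-numbered arrays from the group means correlated at −0.30 to 0.37, those of other numbers at −0.23 to 0.39. Single genes were also compared by exact permutation over the 924 divisions of the samples. These permutations matched neither tumour numbers nor slides, so their p-values treat samples of the same tumour as independent. The number of arrays limits the precision. Python 3.11.15, numpy 2.4.6, pandas 2.3.3, scipy 1.17.1 and statmod 1.5.0 were used.

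The 10 genes and all lists were chosen with earlier results of these data known. The text names all 10 genes and the 3 named genes most correlated with each of them. Of the companion and relative lists it names the called genes, or otherwise up to 4 with the smallest p. Cell type lists are given mostly by counts, medians and sums. Mertk, Axl, Siglec1, Scara3, Scara5, Mrc2, Stab2, Msr1, Havcr2, Folr1, Kdr, Pdpn, Vwf and the Cd209 relatives were named after their values were seen. Other settings were normexp background correction (offset 50), quantile normalization, median centring, the deposited table, other filters, the mean of a gene's probes, intensity trend with robust variances, array weights, slide and replicate blocks, and leaving out arrays or tumour numbers. Brightness as a covariate was added once the values had been seen. Macrophages of normal pancreas were not analysed here.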

Additional observations from a re-analysis of the deposited data

How the results depend on the processing

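No difference of the 10 resident markers changed sign in any setting tried. The number of them called was 0 as reported, 2 with intensity trend and robust variances, 2 after normexp and 1 with the filter on all arrays, and it ranged from 0 to 1 when arrays or tumour numbers were left out. Of all features 356 were called, against 13 with brightness as a covariate, 556 with slide as a block, 558 with slide and random replicate blocks, 547 after normexp and 233 with the filter on all arrays. Leaving samples out gave 204 (without tumour 3) to 383, with 209 without tumour 2 and 206 without tumour 5. Of the companion genes 0 were called, against 1 with trend and robust variances, with slide as a block and with slide and random replicate blocks, and 0 to 1 with samples left out. Of the relatives 1 was called, against 0 with brightness, array weights or the filter on all arrays, 2 after normexp, with slide as a block and with slide and random replicate blocks, and 0 to 1 with samples left out. The filter on all arrays tested fewer genes; the cause of the other changes was not tested. The brightness difference stayed between 0.42 and 0.56.

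With the tumour number as a replicate block, 1 of the 10 genes (Timd4), 1 companion gene, 0 relatives and 296 features in all were called. Vsig4 had an adjusted p of 0.063 and Cd209f of 0.054. The block changed no other call among the 10 genes, the companion genes and the relatives.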
